A study of Homo sapiens with 35 samples.

Results

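The 48 genes described here encode the machinery that licenses replication origins and copies DNA, with the E2F factors and cyclins E that act on it. They were listed by name, with earlier results of these data known, as the protein-coding entries of 48 symbols. They make up 48 of the 19665 protein-coding entries and 48 of the 17999 that had a count in any library. All 48 also passed the filter on low counts that was applied as an alternative. RNA was sequenced from RPMI-8226, a human multiple myeloma cell line derived from malignant plasma cells, after a pulse of carfilzomib, a drug that binds the proteasome irreversibly. Cells received 750 nM carfilzomib for 1 h, were washed and were cultured without the drug, and RNA was taken on days 1, 2, 4, 6, 8 and 10 and on day 0. Each of the 7 days had 5 libraries, 35 in total. Later groups differ from day 0 in the pulse and in time together, and no group that was mock treated and cultured in parallel is compared here. The methods also describe regular changes of medium and a reset of cell density on days 0, 6 and 8, so handling and time cannot be told apart. The study's methods describe subcultures split from 1 expanded culture of 1 cell line, so p-values measure the spread between these subcultures, which may be technical. The treatment field of the labels names carfilzomib for the day 0 libraries too, whereas the study's methods take day 0 as the state before the pulse.

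Eukaryotic DNA replication is prepared in G1, when the origin recognition complex with CDC6 and CDT1 loads the ring of MCM2 to MCM7 on DNA, and geminin later blocks CDT1 so that origins are not licensed again. In S phase, CDC45 and the GINS complex turn the ring into an active helicase, DNA polymerases alpha, delta and epsilon copy the strands with the sliding clamp PCNA, and ribonucleotide reductase and thymidylate synthase supply deoxynucleotides. Many of these genes are transcribed under E2F factors as cells pass from G1 into S phase. Their RNA levels are no measure of how fast cells divide, and the study's measurements of cell cycle and viable cells are not analysed here. In RNA of whole cultures, a change in the share of cells in S phase and a change in the RNA of each cell cannot be told apart.

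Total estimated counts lay between 6519392 and 10962890 per library, and the mean correlation of each library with the others of its day was 0.973 to 0.982 over all filtered entries. All 8 plasma cell markers, among them SDC1, CD38 and XBP1, were above 10 CPM (the usual unit for read counts scaled to the size of their library, here the TMM-normalized size) in every library. Of 12 markers of other cell types, 4 stayed below 1 CPM in every library (CD3D, LYZ, HBB and COL1A2), whereas the epithelial marker EPCAM was at 44 to 95.7 CPM. The B cell markers MS4A1 and PAX5 were at 3.73 to 13.3 CPM and 0.963 to 4.71 CPM. The remaining markers all exceeded 1 CPM in some library, up to 7.94 CPM for PECAM1. The summed plasma cell markers were at 1308 to 1455 CPM on day 1 and at 1880 to 2343 CPM on the other days, and those of other cell types at 64.5 to 89.7 CPM on day 0 and 118.7 CPM at most. The share of counts from the mitochondrial genome was 7.34% to 10.6% on day 0 and 5.42% to 8.55% on the later days, and the 10 most abundant entries held 12.6% to 15% on day 0 and 8.49% to 13.4% later. Their part in the differences from day 0 was not tested.

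Most of the replication genes rose within a day of the pulse, were highest on day 2 and fell on the way to day 6, and 40 of the 48 were higher than day 0 on day 10. PCNA was the only member that was not higher than day 0 on any day, with no call on day 2 and lower values than day 0 on the other 5 days. The 48 members held 0.163% ± 0.004 (SD, n = 5) of protein-coding counts on day 0, 0.286% ± 0.010 on day 1 and 0.430% ± 0.008 on day 2. The share was 0.280% ± 0.009 on day 4 and on day 6 0.185% ± 0.013, followed by 0.198% ± 0.012 and 0.231% ± 0.019 for days 8 and 10. On day 10, replicate 5 was at 0.265% and the other 4 libraries at 0.220% to 0.226%. The 5 libraries of days 1, 2, 4, 6, 8 and 10 all lay above the highest library of day 0, which was at 0.168%. For comparison between days, each entry was tested with edgeR's quasi-likelihood test, and higher or lower means an adjusted p of at most 0.05 over all 17999 entries.

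On day 1, 43 members were higher than on day 0 and 1 was lower, where 25.4% of all entries were higher and 27.3% lower. On day 2, 47 were higher and 0 lower by edgeR (0 also at an unadjusted p under 0.05 and 0 by DESeq2), where 23.2% of all entries were higher and 24.4% lower. In 46 members all 5 day 2 libraries lay above all 5 day 0 libraries, as they did in 18.5% of all entries. The median log2 difference of the members from day 0 was 0.88 on day 1 and 1.39 on day 2, beside -0.06 and -0.04 over all entries. On day 4, 42 members were still higher and 1 lower (all entries, 19% and 20.1%), with a median of 0.82. Day 6 had 21 higher and 5 lower (all entries, 17.5% and 17%), and day 8 had 27 and 3 (all entries, 18.2% and 18.6%), with medians of 0.33 and 0.35. On day 10, 40 were higher and 1 was lower (all entries, 16.1% and 15.8%), with a median of 0.61. The comparisons with day 0 share its 5 libraries, so a deviation in those libraries enters each of them.

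**Figure D1:**
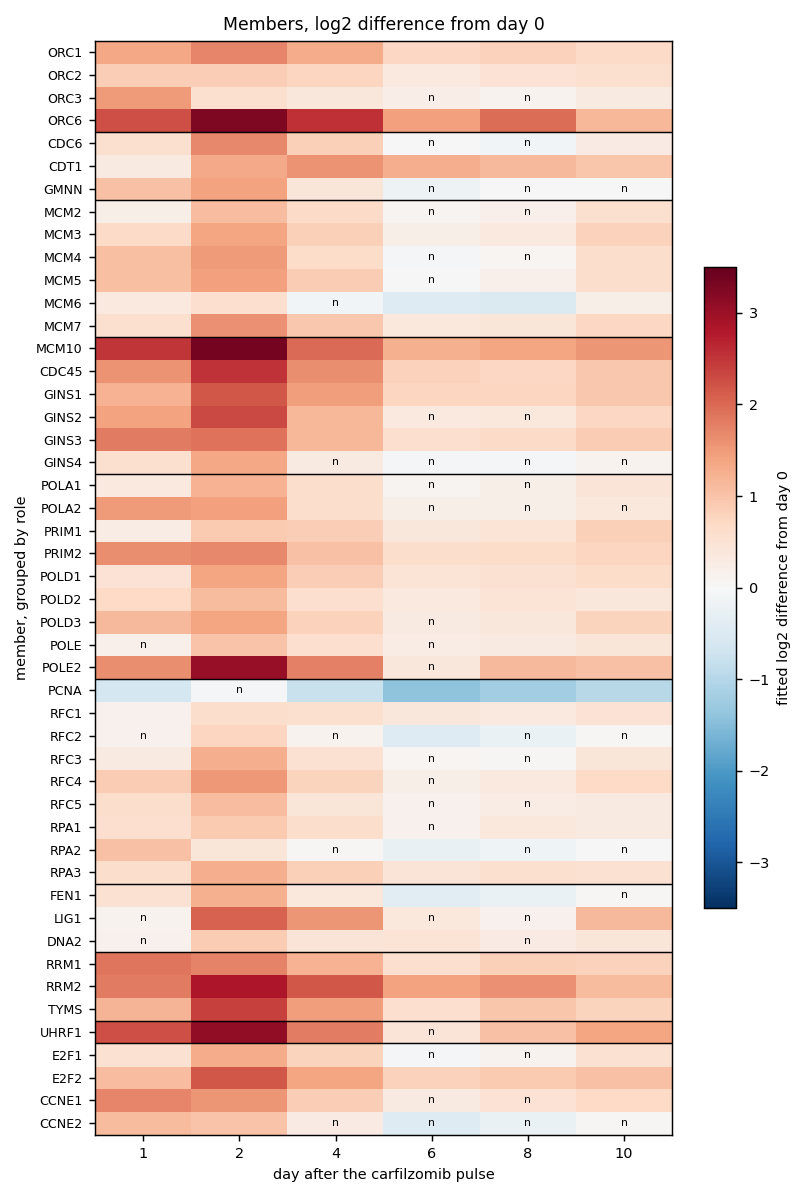
Fitted log2 difference from day 0 (colour) of the 48 members (rows, grouped by role with black lines between roles) on days 1 to 10 (columns). Cells marked n did not reach an adjusted p of 0.05. The day 2 column is red in every row but that of PCNA, and the columns of days 6 and 8 are the palest.

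Between neighbouring days, 38 members rose and 2 fell from day 1 to day 2 (all entries, 20.2% higher and 19.4% lower). From day 2 to day 4, 1 rose and 42 fell (all entries, 13.9% and 16.7%), and from day 4 to day 6 by edgeR 0 rose (0 also at an unadjusted p under 0.05 and 0 by DESeq2) and 40 fell (all entries, 6.09% and 5.98%). From day 6 to day 8, 1 rose and 0 fell by edgeR (4 and 0 by DESeq2; all entries, 1.03% and 1.53%), with 10 and 0 at an unadjusted p under 0.05. The member that rose was UHRF1 (log2 difference 0.58). The count became 0 without replicate 1, 2 or 3 of day 6 or replicate 3 or 4 of day 8, 3 without replicate 5 of day 6, 2 without replicate 1 of day 8 and 5 without replicate 2 of day 8. From day 8 to day 10, 14 rose and 1 fell (all entries, 5.08% and 4.97%). Without replicate 2 of day 8 or without replicate 5 of day 10, 8 rose. By mean CPM the highest day was day 2 for 40 members, day 1 for 6 (ORC3, POLA2, RPA2, RRM1, CCNE1 and CCNE2), day 4 for CDT1 and day 0 for PCNA.

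**Figure D2:**
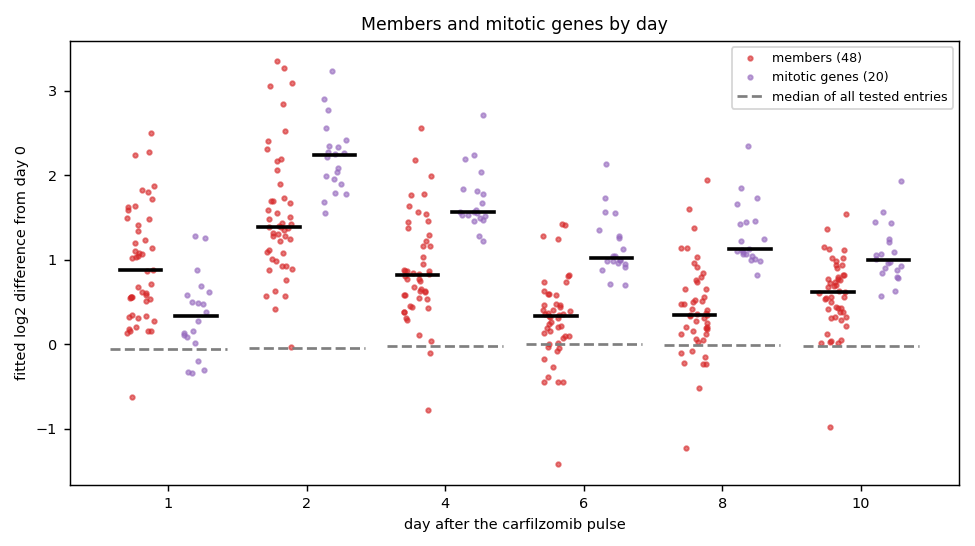
Fitted log2 difference from day 0 of the 48 members (red) and of 20 mitotic genes (purple) on each day, with black bars at the medians and a dashed grey line at the median of all 17999 entries. On day 1 the median of the members was 0.88 and that of the mitotic genes 0.33, and on day 2 they were 1.39 and 2.23.

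All 4 members from the origin recognition complex, whose products mark origins, were higher on days 1, 2, 4 and 10 (ORC1, ORC2, ORC3 and ORC6). ORC4 and ORC5 are not among the members. ORC1 was at 16.9, 22.4, 22.3, 19 and 17.3 CPM on day 0, 45.7, 45.3, 55.9, 55.1 and 46.8 CPM on day 1 and 67.7, 60.3, 60.8, 65.4 and 64.5 CPM on day 2. Every library of days 1 and 2 was above every day 0 library, and the log2 difference on day 2 was 1.70 (SE 0.09, adjusted p = 3.86e-19). ORC2 was at 22.4, 16.8, 21.4, 14.4 and 19.8 CPM on day 0 and 39.3, 29.2, 38.6, 36.7 and 31.1 CPM on day 2, a difference of 0.87 (SE 0.12). ORC3 went up early and briefly, from 16.3, 14.3, 20.9, 18.6 and 11.6 CPM on day 0 to 45.9, 46.9, 44.7, 48.2 and 44.1 CPM on day 1 and then 23.7, 23.1, 25.4, 28.7 and 20.8 CPM on day 2. Its log2 differences from day 0 on days 1 and 2 were 1.49 and 0.57, and it fell by 0.92 on the log2 scale from day 1 to day 2 (SE 0.11, adjusted p = 1.07e-09). The day 2 libraries of ORC3 overlapped those of day 0, one at 20.8 CPM against a day 0 library at 20.9 CPM. The rise of ORC3 on day 10 (0.32, adjusted p = 0.037) lost its call when any 1 of 6 libraries was left out (replicates 1, 2 and 5 of day 0 and replicates 2, 4 and 5 of day 10), with differences of 0.24 to 0.33.

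ORC6 had the largest difference of the group on day 2, 3.27 (SE 0.34, adjusted p = 4.85e-11), from few counts. Its protein-coding entry was at 1.97, 2.22, 2.32, 3.01 and 0 CPM on day 0 and 13.5, 21, 19.4, 19.7 and 19.2 CPM on day 2, every day 2 library being above every day 0 library. However, 92.3% of the counts of the ORC6 symbol on day 0 and 61.9% on day 2 were assigned to transcripts of other biotypes, mainly retained introns. With all biotypes of a symbol summed, the ORC6 difference was 1.05 on day 2 (adjusted p = 1.49e-12) and 0.14 on day 10 (adjusted p = 0.401), against 1.15 on day 10 for the protein-coding entry. The day 10 call of that entry was also lost without replicate 5 of day 0 (0.88), without replicate 2 of day 10 (0.99) and without replicate 5 of day 10 (0.99).

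The loading factors CDC6 and CDT1 and their inhibitor geminin (GMNN) all rose on days 1 and 2 and then took different courses. CDC6, which closes the loading complex at the origin, was at 33.5, 38.4, 34.3, 36.1 and 42.2 CPM on day 0 and 118, 115, 124, 123 and 115 CPM on day 2 (log2 difference 1.69, SE 0.07, adjusted p = 5.33e-23). It was back at 37.1 ± 2.71 CPM on day 6, a difference of 0.01 from day 0 (adjusted p = 0.97). CDT1, which brings the helicase ring to the origin, was at 21.7, 21.1, 23.4, 22.8 and 22.5 CPM on day 0, 24.7, 27.1, 28.8, 29.3 and 29.2 CPM on day 1 and 54.3, 53.8, 56.7, 58 and 54.6 CPM on day 2. On day 4 it was at 81.9, 68.1, 61.2, 62.6 and 56.1 CPM, and it was the 1 member that rose from day 2 to day 4, by 0.25 (SE 0.08, adjusted p = 0.00853). Without replicate 1 of day 4, the highest CDT1 library, no member rose between those days. CDT1 was still at 42, 48.7, 39.4, 42.8 and 46.7 CPM on day 10, above every day 0 library, with a difference of 0.98 (SE 0.09, adjusted p = 3.84e-12). GMNN was at 22.2, 24.9, 22.7, 22.2 and 19.6 CPM on day 0, 52.4, 63.5, 60.7, 56.1 and 62.8 CPM on day 2 and 22, 19.7, 21.8, 24.3 and 25.7 CPM on day 10. Its days 0 and 10 overlapped, with a difference of 0.02 (SE 0.10, adjusted p = 0.962).

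All 6 subunits of the MCM2-7 ring were higher on days 1, 2 and 10. On day 2 the differences ran from 0.57 for MCM6 to 1.59 for MCM7, with a median of 1.41. The rise of MCM2 on day 1 was small (0.20, adjusted p = 0.0472) and lost its call without any 1 of 9 libraries (replicates 1, 3, 4 and 5 of day 0 and replicates 1, 2, 3, 4 and 5 of day 1), with differences of 0.15 to 0.21. MCM7 was at 70.3, 75.9, 66.1, 65.1 and 82 CPM on day 0 and 221, 201, 244, 202 and 213 CPM on day 2. Of the counts of the MCM7 symbol, 64.7% belonged to other biotypes, all of them counted as retained introns, and with all biotypes summed the MCM7 difference was 0.06 on day 1 (adjusted p = 0.365) and 0.98 on day 2 (adjusted p = 1.75e-22). MCM6 was at 145, 145, 142, 151 and 141 CPM on day 0, 211, 218, 217, 213 and 222 CPM on day 2, 105, 98.4, 108, 92.1 and 105 CPM on day 8 and 155, 181, 172, 153 and 181 CPM on day 10. Its libraries of day 2 and of day 10 lay above all of day 0, and those of day 8 lay below all of day 0. MCM6 was thus higher on day 2 (0.57, adjusted p = 6.21e-12), lower on day 8 (-0.51, adjusted p = 7.83e-10) and higher on day 10 (0.22, adjusted p = 0.00185).

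From day 8 to day 10 all 6 MCM2-7 subunits rose, by 0.31 to 0.73 on the log2 scale, and they made up 6 of the 14 members that rose in that interval. MCM6 had the largest of these differences, 0.73 (SE 0.06, adjusted p = 1.22e-12). The other 8 were CDC6, PRIM1, POLD3, PCNA, RFC4, RFC3, FEN1 and E2F1. RRM2 fell in the same interval, by 0.49 on the log2 scale (SE 0.07, adjusted p = 4.34e-06).

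**Figure D3:**
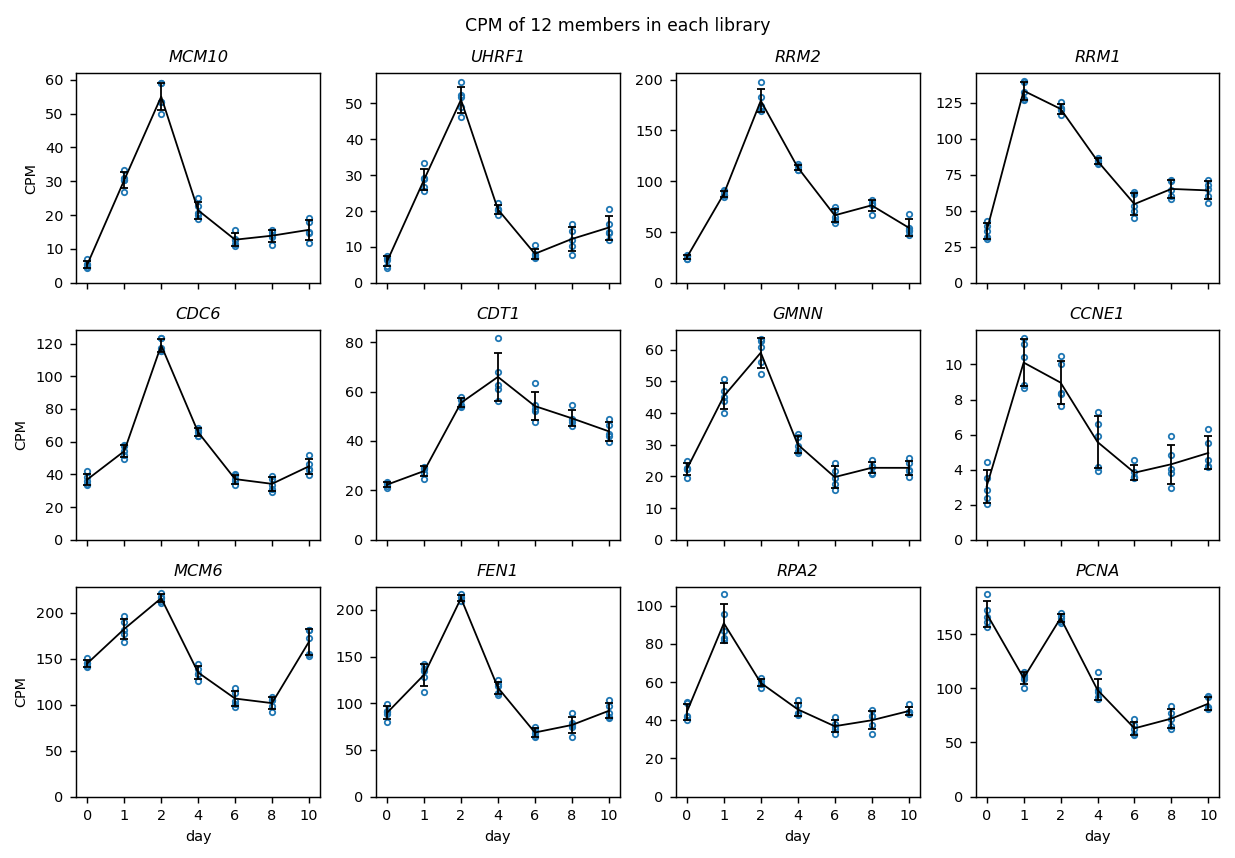
CPM of 12 members in every library (blue circles) on days 0 to 10, with the mean (line) and SD (bars) of the 5 libraries of each day. The time points are evenly spaced on the axis, and each axis starts at 0. The mean was highest on day 2 for MCM10 and UHRF1, on day 1 for RRM1, CCNE1 and RPA2 and on day 4 for CDT1. From day 1 to day 2, RPA2 fell, while the changes of RRM1 and CCNE1 did not pass the test. PCNA fell on day 1 and again after day 2.

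The 6 genes of helicase activation were all higher on days 1 and 2, with medians of 1.5 and 2.24 beside 0.88 and 1.39 over the 48 members, and all 6 were more than 2-fold higher on day 2. MCM10, which joins the helicase as it is activated, had the largest difference of all 48 members on day 2. It was at 4.36, 5.4, 4.83, 7.01 and 5.58 CPM on day 0, 26.8, 30.8, 33.4, 30.4 and 30.4 CPM on day 1 and 49.9, 53.5, 58.9, 53.4 and 59.1 CPM on day 2. These are 3 sets of values with no overlap, and the difference of day 2 from day 0 was 3.35 (SE 0.13, adjusted p = 1.31e-24). MCM10 stayed higher on all later days and was at 14.6, 14.9, 17.9, 11.8 and 19.1 CPM on day 10 (difference 1.54). CDC45, the partner of the ring, went from 2.91 ± 0.800 to 17.2 ± 2.18 CPM (SD, n = 5) between days 0 and 2, a difference of 2.53 (SE 0.21). Within the GINS complex, GINS1, GINS2 and GINS3 had day 2 differences of 2.17, 2.31 and 1.9, and GINS4 had the lowest, 1.35 (SE 0.17). GINS4 was at 6.89, 9.52, 8.04, 6.61 and 7.7 CPM on day 0 and 22, 16.2, 19.9, 19.4 and 22 CPM on day 2. By day 4 it had a difference of 0.31 (adjusted p = 0.196), whereas the other 5 were more than 2-fold higher.

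The 9 genes of the replicative polymerases and primase were all higher on days 2 and 4, 8 of them on day 1 and 8 on day 10. POLE2, the second subunit of DNA polymerase epsilon, had the largest day 2 difference, 3.05 (SE 0.30, adjusted p = 1.98e-11). It was at 2.25, 0.952, 1.97, 1.4 and 1.16 CPM on day 0 and 13.9, 12, 12.2, 16 and 11.6 CPM on day 2, with no overlap. Its day 10 libraries, at 1.41, 2.56, 2.91, 3.97 and 5.13 CPM, overlapped those of day 0, and the day 10 call (1.03, adjusted p = 0.0185) was lost without replicate 2 of day 0 (0.90) or replicate 5 of day 10 (0.81). The catalytic subunit POLE was at 32.6, 30.6, 38.4, 26.7 and 26.4 CPM on day 0, 42.2, 33.1, 31.5, 28.5 and 40.1 CPM on day 1 and 60.6, 58.3, 63, 62.5 and 63.9 CPM on day 2. It was the 1 gene of this group without a call on day 1 (0.18, adjusted p = 0.225), and its day 2 difference was 0.99 (SE 0.11). PRIM1, the catalytic subunit of primase, had the lowest day 2 difference, 0.93 (SE 0.10), from 18.8, 12.5, 15.7, 16.4 and 16.6 CPM on day 0 to 32.9, 31.1, 28.6, 30.5 and 29.7 CPM on day 2. It then fell to 19.1, 20.1, 18.7, 22.3 and 26 CPM on day 6 and was at 20.4, 22.2, 24.9, 24.7 and 19 CPM on day 8. On day 10 it was again near the day 2 level, at 28, 29.1, 27, 29 and 28.6 CPM, all above day 0 (0.82, adjusted p = 1.4e-08). The small day 1 difference of PRIM1 (0.27) lost its call without any 1 of 5 libraries (replicates 2 and 3 of day 0 and replicates 1, 3 and 4 of day 1), down to 0.18. For POLA2, the accessory subunit of polymerase alpha, 55.1% of the counts of the symbol were in other biotypes, and its day 10 difference was 0.38 (adjusted p = 0.129) for the protein-coding entry and 0.69 (adjusted p = 1.12e-10) with all biotypes summed.

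In the group of the clamp, its loader and the single-strand binding protein RPA, 8 of 9 genes were higher on day 2 and 1 was not called. RFC4, a subunit of the clamp loader, was at 19.8, 23, 14.1, 22.6 and 19.8 CPM on day 0 and 58, 56.1, 53.7, 55.8 and 60.3 CPM on day 2 (difference 1.51, SE 0.11, adjusted p = 7.7e-15). RFC2, another loader subunit, was at 29.1, 35.7, 23.1, 29.3 and 33.5 CPM on day 0, 51.7, 49.7, 50.7, 57.4 and 45.5 CPM on day 2 and 17, 23.1, 20.3, 27.9 and 22.4 CPM on day 6. Day 2 was above all of day 0 (0.76, adjusted p = 6.38e-07), while the day 6 libraries were lower but overlapped it (-0.45, SE 0.13, adjusted p = 0.00449). RPA2, the middle subunit of RPA, was highest on day 1, at 82.2, 95.9, 83, 106 and 86.9 CPM against 48.8, 41.9, 40.0, 49.3 and 42.2 CPM on day 0 and 58.8, 57.1, 61.9, 59.2 and 60.7 CPM on day 2. It fell from day 1 to day 2 by 0.61 on the log2 scale (SE 0.07, adjusted p = 3.63e-09), and on day 6 it was lower than on day 0 (-0.27, adjusted p = 0.00677). RPA1 and RPA3, the large and the small subunit, rose from day 1 to day 2. The day 1 difference of RFC1 (0.15) lost its call without any 1 of 5 libraries (replicates 1, 4 and 5 of day 0 and replicates 3 and 5 of day 1), down to 0.10. That of RFC3 (0.31) did so without any 1 of 7 (replicates 1, 3 and 5 of day 0 and replicates 2, 3, 4 and 5 of day 1), down to 0.26.

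PCNA, the sliding clamp itself, was the only member that was not higher than day 0 on any day. It was at 157, 166, 161, 187 and 172 CPM on day 0, 101, 110.5, 109, 115 and 112 CPM on day 1 and 167, 162, 165, 160.2 and 169.7 CPM on day 2. All libraries of day 1 lay below all of day 0, by 0.62 on the log2 scale (SE 0.07, adjusted p = 2.03e-10), and those of day 2 lay within the range of day 0 (difference -0.03, SE 0.07, adjusted p = 0.74, and 0.097 without scaling factors). From day 1 to day 2 PCNA rose by 0.59 (SE 0.07), as the majority of the members did. It then reached 57.6, 57, 62.8, 65.9 and 71.5 CPM on day 6, 65, 61.9, 77.4, 83.7 and 71.8 CPM on day 8 and 80.6, 82.5, 81.6, 92.6 and 91.4 CPM on day 10. Those 15 libraries were all below day 0, and the log2 differences were -1.42, -1.23 and -0.97, with adjusted p = 7.69e-15 on day 10. PCNA was the 1 member that was lower than day 0 on days 1, 4 and 10, 1 of 5 on day 6 and 1 of 3 on day 8.

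Of the flap and ligation genes, which join Okazaki fragments, FEN1, the flap endonuclease, was at 88.6, 91.7, 79.5, 90.4 and 98.8 CPM on day 0, 217, 210.1, 214, 209 and 213 CPM on day 2 and 64.7, 71.5, 63.9, 68.3 and 74.7 CPM on day 6. Day 2 was above and day 6 below every day 0 library, with differences of 1.24 (adjusted p = 2.65e-19) and -0.39 (adjusted p = 2.6e-05). FEN1 was lower on day 8 too (-0.23, adjusted p = 0.00803), a call that was lost without replicate 5 of day 0 (-0.18) or replicate 2 of day 8 (-0.16). DNA2, a nuclease and helicase that trims long flaps, was at 10.3, 8.09, 11.3, 9.62 and 9.82 CPM on day 0 and 18.2, 16.4, 19.5, 19.3 and 17.9 CPM on day 2 (0.90, SE 0.13). LIG1, the ligase, varied widely between libraries of 1 day. Its protein-coding entry was at 15.2, 5.24, 3.57, 0.802 and 26.8 CPM on day 0 and 59.3, 43.6, 41.3, 33.6 and 39.3 CPM on day 2. The groups did not overlap (2.07, SE 0.40, adjusted p = 2.95e-05), and 67.1% of the counts of the LIG1 symbol on day 0 and 37.3% on day 2 were in other biotypes, mainly transcripts marked for nonsense-mediated decay. With all biotypes summed, LIG1 was at 25.1, 26.7, 32.4, 22.1 and 28.8 CPM on day 0, and its differences were -0.23 on day 1 (adjusted p = 0.0366), 1.19 on day 2 and 0.34 on day 10. The day 10 call of the protein-coding entry (1.12, adjusted p = 0.0367) was lost without any 1 of 6 libraries (replicates 2, 3 and 4 of day 0 and replicates 2, 3 and 5 of day 10), with differences of 0.87 to 1.12.

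The genes of deoxynucleotide supply, RRM1, RRM2 and TYMS, were higher on all 6 later days. RRM2, the small subunit of ribonucleotide reductase, was at 23.1, 23.2, 27.3, 26.1 and 26 CPM on day 0, 84.2, 91, 86.2, 90.2 and 86.4 CPM on day 1 and 197, 172, 169, 174 and 182 CPM on day 2. The libraries of these 3 days did not overlap, and day 2 differed from day 0 by 2.84 (SE 0.08, adjusted p = 4.18e-29). RRM1, the large subunit, was at 39.8, 43.2, 31.6, 36.1 and 30.2 CPM on day 0, 127, 139.8, 140.0, 133 and 128 CPM on day 1 and 121, 120.1, 116, 126 and 121 CPM on day 2. It had reached its highest mean on day 1 (1.87, SE 0.08), and the change from day 1 to day 2 was -0.14 (adjusted p = 0.121). TYMS, thymidylate synthase, had means of 25.3 ± 5.77 and 133 ± 12.5 CPM on days 0 and 2 (SD, n = 5), a difference of 2.41 (SE 0.11). TYMS overlaps ENOSF1 on the other strand, and although the library kit keeps strand, whether the counting used it is not given in the sources used here.

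UHRF1, which binds hemimethylated DNA behind the fork and brings the maintenance methyltransferase DNMT1 to it, was at 4.22, 6.98, 6.43, 4.81 and 7.51 CPM on day 0, 29.1, 29, 26.8, 25.6 and 33.3 CPM on day 1 and 48.9, 51.8, 46.2, 55.8 and 52.4 CPM on day 2. No libraries overlapped between these days, and the day 2 difference was 3.10 (SE 0.15, adjusted p = 1.01e-20). It fell to 7.29, 8.05, 6.88, 7.78 and 10.5 CPM on day 6 (0.45, adjusted p = 0.0531) and was at 13.9, 14.2, 16.3, 11.9 and 20.7 CPM on day 10 (1.37, adjusted p = 1.26e-08). The missing call on day 6 was made without replicate 2 of day 0, replicate 5 of day 0, replicate 1 of day 6 or replicate 3 of day 6, with differences of 0.49 to 0.54.

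All 4 genes of the E2F and cyclin E group were higher on days 1 and 2. E2F2, an activator E2F, had the largest day 2 difference, from 29.3, 34.8, 26.3, 24 and 26.6 CPM on day 0 to 129.7, 133, 132, 133 and 117 CPM (2.19, SE 0.09, adjusted p = 1.04e-22). E2F1, the best known activator, was at 14.8, 15.1, 13.8, 10.8 and 11 CPM on day 0 and 33, 32.7, 30.5, 38.2 and 29.1 CPM on day 2 (1.31, SE 0.11), and on day 6 its difference was -0.08 (adjusted p = 0.659). The cyclins E, which drive CDK2 at the start of S phase, had their highest means on day 1. CCNE1 was at 3.52, 2.06, 2.86, 2.4 and 4.43 CPM on day 0 and 10.4, 8.66, 8.81, 11.5 and 11.2 CPM on day 1 (1.72, SE 0.20, adjusted p = 1.41e-09). CCNE2 was at 7.59, 7.46, 10.2, 7.82 and 6.35 CPM on day 0 and 17.2, 14.3, 15.7, 21.8 and 15.7 CPM on day 1 (1.10, SE 0.18). Every day 1 library of both genes lay above every day 0 library. From day 1 to day 2 neither change passed the test (-0.17 and -0.09).

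Pairs of related members did not always keep their proportion. For 6 pairs, the log2 ratio of their CPM in each library was compared with day 0 on days 1, 2 and 10 by an exact two-sided permutation test of 5 against 5 libraries, adjusted over the 18 tests. The log2 CPM used for the ratios had a prior count of 2 added, which draws ratios of few counts toward 0. The smallest p that this test can give is 0.00794, and 9 of the 18 tests gave it, with an exact adjusted p of 0.0159. CPM is not scaled to transcript length, so only changes of a ratio are compared, not which gene of a pair was higher. The ratio of CDT1 to GMNN, the loading factor to its inhibitor, was -0.04, -0.24, 0.04, 0.04 and 0.20 on day 0 and -0.69, -0.69, -0.70, -0.62 and -0.79 on day 1. All day 1 ratios were below day 0, by a mean of 0.70 (exact adjusted p = 0.0159), and on day 2 the groups overlapped again (difference -0.09, exact adjusted p = 0.42). On day 10 the ratio was 0.93, 1.29, 0.84, 0.81 and 0.86, above day 0 in all 5 libraries by a mean of 0.94 (exact adjusted p = 0.0159). Its mean was also 1.12 ± 0.28 on day 4 and 1.45 ± 0.19 on day 6 (SD, n = 5), for which no test was made.

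The ratio of RRM2 to RRM1 was -0.78, -0.89, -0.21, -0.46 and -0.22 on day 0, -0.59, -0.62, -0.70, -0.55 and -0.56 on day 1 and 0.71, 0.52, 0.54, 0.47 and 0.59 on day 2. It did not differ beyond the spread on day 1 (difference -0.09, exact adjusted p = 0.555), and on day 2 it was higher by a mean of 1.08 in all 5 libraries (exact adjusted p = 0.0159). On day 10 its difference was 0.27 (exact adjusted p = 0.194), and 0.53 with all biotypes summed, which passed the test. E2F2 to E2F1 was higher on all 3 tested days, with differences of 0.53, 0.88 and 0.46 for days 1, 2 and 10, in 5 of 5 libraries each (exact adjusted p = 0.0159). For POLE2 to POLE the differences were 1.33 on day 1 and 1.9 on day 2 (exact adjusted p = 0.0159 for both) and 0.42 on day 10 (exact adjusted p = 0.229). POLE2 had only 16, 6, 11, 7 and 6 counts in the day 0 libraries, so the prior count weighs on this ratio. ORC1 to ORC2 differed by 0.82 on day 2 (exact adjusted p = 0.0159), and its differences of 0.46 on day 1 and 0.10 on day 10 had exact adjusted p = 0.0857 and 0.556. Without replicate 2 of day 0 (0.54) or replicate 4 of day 0 (0.54) the day 1 difference of ORC1 to ORC2 passed, as did the day 10 difference of POLE2 to POLE without replicate 1 of day 10 (0.65). The differences of CCNE2 to CCNE1 were -0.59, -0.51 and -0.62 on days 1, 2 and 10, and none passed the test (exact adjusted p = 0.104, 0.154 and 0.119). Without replicate 5 of day 0 all 3 passed, with differences of -0.79, -0.71 and -0.83.

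**Figure D4:**
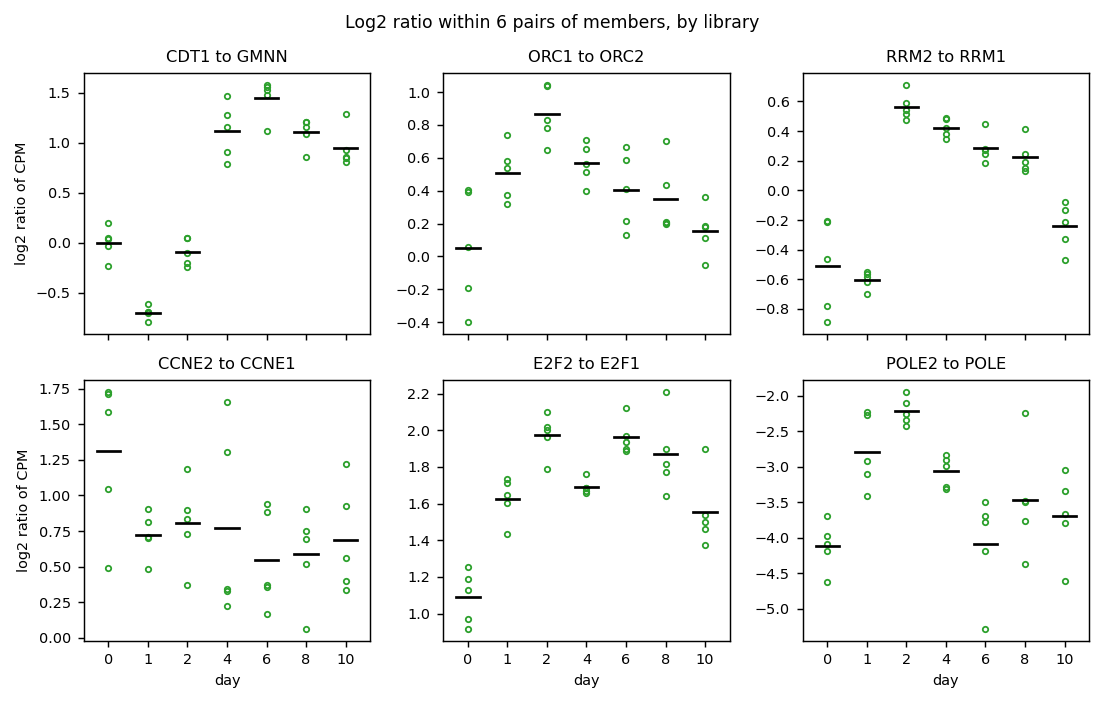
Log2 ratio of the CPM of 6 pairs of members in each library (green circles) on days 0 to 10, with black bars at the mean of each day. CDT1 to GMNN fell below day 0 on day 1 and lay above it from day 4 to day 10, and RRM2 to RRM1 lay above every day 0 library from day 2 to day 8.

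Other genes of the same pathways were counted from lists, also chosen with earlier results of these data known. Of 43 other replication genes, 26 had risen and 5 had fallen against day 0 by day 1, when 25.4% of all entries were higher and 27.3% lower. The counts were 37 and 1 for day 2 (all entries, 23.2% and 24.4%) and 23 and 2 for day 10, against 16.1% and 15.8% of all entries on day 10. The medians of the list on days 1, 2 and 10 were 0.37, 1.04 and 0.40. The largest day 2 difference of this list was that of TICRR, which acts in origin firing, from 7.72 ± 1.29 to 66.9 ± 6.98 CPM (SD, n = 5; 3.11, SE 0.10). The lowest was that of RRM2B, the ribonucleotide reductase subunit used outside S phase, which fell from 88 ± 3.61 to 51.3 ± 2.68 CPM (-0.78, SE 0.06). Of 24 regulators of E2F, RB and the G1/S step, 13 were higher and 4 lower on day 2 (all entries, 23.2% and 24.4%), with a median of 0.26. E2F8, a repressor E2F, had the largest difference (3.05, from 2.84 ± 0.454 to 23.4 ± 3.9 CPM), and CDKN1A, the inhibitor p21 of cyclin-dependent kinases and of PCNA, had the lowest. CDKN1A was at 546 ± 83.2 CPM on day 0 and at 58.3 ± 9.34, 43.1 ± 3.32 and 41.7 ± 5.05 CPM on days 1, 2 and 10, with differences of -3.23, -3.66 and -3.71 from day 0 (edgeR adjusted p = 4.68e-29 on day 10).

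The 20 mitotic genes taken for comparison had a smaller median difference on day 1, 0.33, with 11 higher and 3 lower (all entries, 25.4% and 27.3%), and all 20 were higher on day 2 (all entries, 23.2%) with a median of 2.23. From day 1 to day 2 all 20 rose (all entries, 20.2%), by a median of 1.86, beside 0.69 for the 48 members. All 20 were also higher on days 4, 6, 8 and 10 (all entries, 19%, 17.5%, 18.2% and 16.1%), with medians of 1.57, 1.02, 1.12 and 0.99. KIF20A, a kinesin of cytokinesis, had the largest day 2 difference (3.23) and NUF2, a kinetochore protein, the lowest (1.55). From day 8 to day 10, 8 of the 20 fell (all entries, 4.97%), an interval in which 14 of the 48 members rose (all entries, 5.08%). Without replicate 2 of day 8 or without replicate 5 of day 10, 8 members rose. No test between the lists was made.

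The promoters of the members were read from RefSeq (GRCh38.p14), in windows from 250 bases before to 50 after the annotated start of transcription, and 40 of the 48 members had one. The E2F word was searched on either strand in 4 forms. One form was TTCCCGC, while another form was TTCGCGC. The third form was TTGCCGC, while the last form was TTGGCGC, where a match on one strand can overlap a match on the other. It was found in 29 of the 40 windows (72.5%), in 13.1% of all 27305 windows and in 17.9% of the 13348 windows of tested entries. The members were listed by name as replication genes, many of which are known to be transcribed under E2F factors. Their share thus reflects the choice of genes, and the windows were not matched for base composition. A match began in the 60 bases just before the start in 19 of 40 members (47.5%) and in 4.49% of the windows of tested entries, and some of these ran past the start. CCAAT was found in 24 of 40 (60%) against 36.1% of those windows, and the words TTCGAA and TTTGAA of the cell cycle homology region in 2 of 40 (5%) against 12.4%. The median day 2 difference was 1.39 for the 29 members with the E2F word and 1.55 for the 11 without it. MCM10, ORC6 and RRM2, with large day 2 differences, had no match to these 4 forms in their windows, whereas PCNA had 1. Other forms of the word were not searched, so a window without a match may still hold an E2F site. The windows of MCM10 and CDC45, for example, hold TTGGCGG, which differs from TTGGCGC in the last base and was not counted.

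Of these windows, 4 are shown because they carry the word in genes with different courses. They are given for the 250 bases before the start, 5′ to 3′ on the strand of the gene, with E2F words in capitals. UHRF1 had a day 2 difference of 3.10, CDT1 stayed high to day 10, MCM6 changed least of the MCM2-7 genes on day 2, with 2 pairs of overlapping matches, and PCNA did not rise on day 2.
UHRF1 (chr19:4909251-4909500, + strand): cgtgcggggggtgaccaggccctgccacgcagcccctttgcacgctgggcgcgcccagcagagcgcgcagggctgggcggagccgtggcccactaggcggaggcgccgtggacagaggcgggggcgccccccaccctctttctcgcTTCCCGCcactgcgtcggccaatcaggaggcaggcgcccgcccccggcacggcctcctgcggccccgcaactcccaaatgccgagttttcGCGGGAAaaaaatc
CDT1 (chr16:88803539-88803788, + strand): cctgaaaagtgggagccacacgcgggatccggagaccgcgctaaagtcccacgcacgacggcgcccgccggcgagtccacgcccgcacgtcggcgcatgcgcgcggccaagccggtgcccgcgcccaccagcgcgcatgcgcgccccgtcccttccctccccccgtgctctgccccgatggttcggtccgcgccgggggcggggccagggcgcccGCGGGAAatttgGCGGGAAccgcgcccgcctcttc
MCM6 (chr2:135876444-135876693, - strand): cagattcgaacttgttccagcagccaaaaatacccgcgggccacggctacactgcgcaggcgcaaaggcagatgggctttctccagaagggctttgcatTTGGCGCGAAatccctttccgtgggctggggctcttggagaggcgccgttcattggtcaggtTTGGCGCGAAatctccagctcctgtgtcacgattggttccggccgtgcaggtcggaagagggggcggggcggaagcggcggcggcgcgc
PCNA (chr20:5126623-5126872, - strand): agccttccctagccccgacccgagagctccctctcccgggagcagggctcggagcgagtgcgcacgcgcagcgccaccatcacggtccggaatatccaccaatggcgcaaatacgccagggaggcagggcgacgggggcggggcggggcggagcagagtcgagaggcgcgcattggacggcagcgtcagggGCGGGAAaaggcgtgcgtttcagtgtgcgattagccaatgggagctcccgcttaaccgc
A match of letters is a description of the sequence and was not tested for binding.

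The values above rest on protein-coding entries, which leave out what was assigned to other transcript biotypes of the same genes. For 40 of the 48 symbols the files hold 83 such entries, and in 7 of them (LIG1, MCM7, ORC2, ORC6, POLA2, POLE2 and PRIM1) these took more than 25% of the counts of the symbol. With all biotypes of a symbol summed, 3 members moved by more than 1.5-fold on day 2, and all 3 had smaller differences (ORC6's fell by 2.22, LIG1 by 0.87 and MCM7 by 0.60 on the log2 scale). The differences of the other members on day 2 stayed within that range, and the count of members higher on day 2 was again 47.

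**Figure D5:**
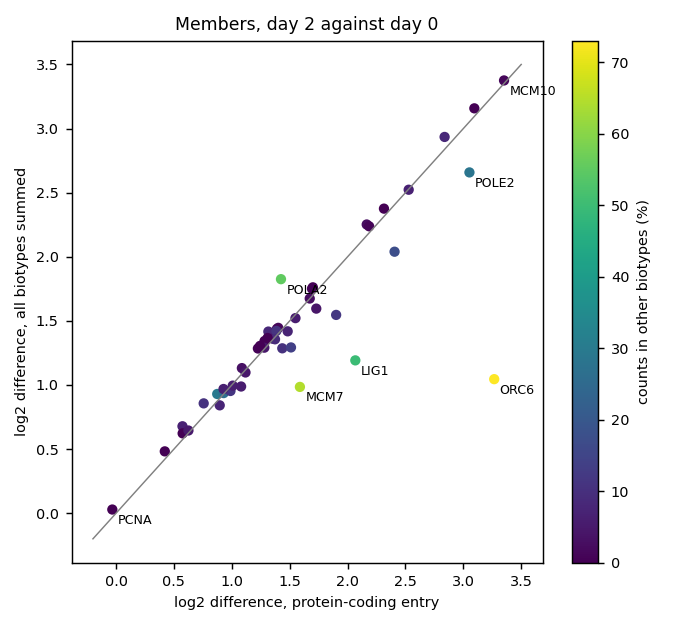
Log2 difference of day 2 from day 0 for the 48 members, from the protein-coding entry (x axis) and from all biotypes of the symbol summed (y axis), coloured by the percentage of counts in other biotypes, with a grey line where both are equal. ORC6, LIG1 and MCM7 lie well below the line and POLA2 above it, while most members lie close to it.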

How the data were processed

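RNA from 35 libraries of RPMI-8226 cells, 5 on each of 7 days, was sequenced by the study as paired-end reads from a directional kit. The authors deposited estimated counts per gene symbol and transcript biotype, made with kallisto 0.44.0 per the submitters' processing notes, which also name DESeq2 1.25.8, R 3.5.0 and GRCh38.p12. Because the counts are estimates, entries of near-identical or overlapping transcripts can share reads, and splitting a symbol by biotype moves counts between its entries. The members are protein-coding entries with 48 listed symbols. The members, roles and gene lists were chosen with earlier results of these data known.

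The 17999 of 19665 protein-coding entries with a count were tested in 1 fit over all days (edgeR 4.0.16 in R 4.3.3, TMM factors, quasi-likelihood test, Benjamini-Hochberg adjustment, threshold 0.05). Values are CPM of normalized library size. Ratios were tested by exact two-sided permutation. Total counts of 6519392 to 10962890 per library set the counting error, and intervals from replicates cover these subcultures only. Alternatives were filterByExpr, RLE factors, no factors, a replicate block, only the libraries of both days, DESeq2 1.42.0, a fold above 2, all biotypes of a symbol summed and leaving out each replicate. Libraries of a day differed by more than sampling noise (chi-square per degree of freedom 2.52 or more), so each was counted. On simulated counts for day 2 against day 0 over 16487 entries, the test called 96 of 100 entries changed 4-fold, 62 of 100 changed 1.5-fold and 15 of 16287 unchanged. The changed entries were drawn from the more abundant ones, and that fit used only the libraries of days 0 and 2. In the data 23.2% of entries were higher and 24.4% lower on day 2, far more than were changed there, so rates for the reported fit can differ. Values in every library were given for the members with the largest and the lowest day 2 difference of each role, for members lower than day 0 on any day and for the 6 pairs. Promoters were read from RefSeq (GRCh38.p14), and 8 members had none there. No sequence of the libraries was analysed.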

Additional observations from a re-analysis of the deposited data

Results flagged for a closer look

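In 28 members with values given by library, each day of 5 libraries was searched for a library far from the other 4 by Dixon's criterion, and 8 of 196 groups (4.08%) held one, where chance gives about 1 in 20. These were ORC2 on day 4 (replicate 5, 36.6 CPM), ORC6 on day 2 (replicate 1, 13.5 CPM), ORC6 on day 4 (replicate 1, 15.3 CPM) and MCM7 on day 1 (replicate 1, 83.1 CPM). The others were GINS4 on day 4 (replicate 2, 11.7 CPM), RFC2 on day 1 (replicate 5, 39.2 CPM), RPA2 on day 10 (replicate 4, 48.3 CPM) and E2F2 on day 2 (replicate 5, 117 CPM).

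In 4 members day 2 was higher than day 0 and day 6 lower. The log2 difference of day 6 from day 2 was -1.02 for MCM6, -1.20 for RFC2, -0.69 for RPA2 and -1.63 for FEN1. They were picked for these opposite directions, which fix the sign of that difference, so it is a description with no test.

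The entries of other biotypes, which the comparisons of protein-coding entries leave out, held counts for 40 member symbols, in very unequal amounts. The largest was the retained intron entry of MCM7, with 51443 counts over all libraries, 6049 of them on day 0 and 11935 on day 2. POLA1 had 38 such counts over all libraries and CDC6 had 46. Summed, the 83 entries were at 594.9 ± 21.4 CPM on day 2 and at 393 ± 34.0 CPM on day 0 (SD, n = 5), and every day 2 library, from 564.6 CPM up, was above every day 0 library, up to 445.4 CPM.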

How the results depend on the processing

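The 48 members' counts of calls moved by over 1.5 times under few settings. With a fold above 2 required in addition, the counts became 23 higher and 0 lower on day 1, 16 and 0 on day 4, 4 and 1 on day 6, 6 and 1 on day 8 and 7 and 0 on day 10, against day 0. Between neighbouring days they became 8 and 0 from day 1 to 2, 0 and 5 from day 2 to 4, 4 lower from day 4 to 6, 0 higher from day 6 to 8 and 0 and 0 from day 8 to 10. Fewer calls follow from that criterion itself. With all biotypes summed, 2 members were lower on day 1 and 5 rose from day 6 to 8. That last count, 1 as reported, was 3 with filterByExpr, 4 by DESeq2, 0 in a fit of both days alone, and 0 to 5 as single libraries were left out. Leaving out libraries gave 8 to 15 members rising from day 8 to 10 and 0 to 1 from day 2 to 4. RLE factors and library size without factors moved no count by over 1.5 times. The latter shifted the median of all filtered entries by 0.12, 0.13 and 0.11 on days 1, 2 and 4.

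The cause of the following changes was not tested. With all biotypes summed, the ratio differences were 0.52 for ORC1 to ORC2 on day 1, 0.15 for RRM2 to RRM1 on day 1 (the opposite sign, not called), 0.53 for RRM2 to RRM1 on day 10, -0.63 for CCNE2 to CCNE1 on day 1 and 0.76 for POLE2 to POLE on day 10, and all but the second passed the test. As single libraries were left out, ORC1 to ORC2 ranged from 0.34 to 0.54 on day 1 and -0.0097 to 0.19 on day 10, CCNE2 to CCNE1 from -0.79 to -0.49, -0.71 to -0.40 and -0.83 to -0.52 on days 1, 2 and 10, and POLE2 to POLE from 0.26 to 0.65 on day 10. Differences that changed sign were none of them called as reported. LIG1 on day 1 was -0.23 with all biotypes summed and -0.31 to 0.76 without single libraries, and PCNA on day 2 was 0.097 without factors, 0.028 with all biotypes summed and 0.0016 in a fit of both days alone. Without single libraries, day 10 ranged from -0.016 to 0.079 for GMNN, -0.053 to 0.12 for RFC2, -0.025 to 0.062 for RPA2, -0.0059 to 0.085 for FEN1 and -0.041 to 0.16 for CCNE2.

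Same-numbered libraries of different days had correlated deviations in 1 of 105 pairs above 0.1 (mean 0.0049), and 14 of 35 libraries correlated best with their own number, where equal shares of the 5 numbers give 7. This is a hint from the data, not the design, and since not every pair or library shows it, no pairing was assumed. With the replicate block 2 members rose from day 6 to 8, and no other count moved by over 1.5 times.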

Other observations

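The share of counts in other biotypes moved over the days for the member symbols as for all symbols. It was 18.6% ± 1.74 (SD, n = 5) of the counts of member symbols on day 0. It was 12.2% ± 0.64 on day 1 and 12.6% ± 0.56 on day 2, and by day 10 it stood at 15.8% ± 0.58. Over all symbols with a protein-coding entry it was 13.1% ± 0.840 on day 0. It was 10.4% ± 0.56 on day 1 and 10.3% ± 0.60 on day 2, and by day 10 it stood at 12.1% ± 0.71. Of the 40 member symbols with such entries, 33 had a lower share on day 2 than on day 0 and 7 a higher one. The shares are given as a description, with no test.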
